A study of Mus musculus with 8 samples.

Results

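The exportins and the Ran cycle genes that drive them were followed in the fetal liver of Eklf knockout (KO) and wild-type (WT) mouse embryos. They are 10 of the 18193 genes named by single-symbol probe sets on the array, and were taken by name, not by their signals: the exportins Xpo1, Xpo4, Xpo5, Xpo6, Xpo7, Xpot and Cse1l, and the cycle genes Ran, Rangap1 and Ranbp1. A probe set is a group of short probes that together measure a transcript, and all 32 probe sets whose only gene symbol was a member were used. The question put to them was whether Xpo7 stood alone in its family.

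Eklf (Klf1) encodes an erythroid transcription factor that binds CACCC sequences. KO embryos were Eklf-/-, homozygous, from B6 lines that the methods describe as made with a BAC construct of an engineered Eklf locus and E2A-Cre mice, and WT embryos had no such deletion. All were fetuses at E14.5, when the liver is the main site of red cell formation. RNA came from whole livers without culture, 4 KO (replicates 2 to 5) and 4 WT (replicates 1 to 4), with 1 array per embryo. The labels carry 1 code for all KO arrays and another for all WT arrays. What the codes stand for is not stated, and it cannot be told apart from genotype.

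Exportins belong to the karyopherin beta family and carry proteins or RNAs out of the nucleus through the nuclear pore. They bind cargo together with the small GTPase RAN in its GTP form, and in the cytoplasm RANBP1 and the activating protein RANGAP1 make RAN hydrolyse its GTP, so that the cargo is released. Red cell precursors condense and then expel their nucleus, and XPO7 is known for its part in nuclear condensation and enucleation of mouse erythroblasts.

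Klf1, the targeted gene, had log2 signals of 10.81, 10.56, 10.65 and 10.59 in KO replicates 2 to 5, against 14.04, 13.87, 13.98 and 13.90 in WT replicates 1 to 4. All KO arrays lay below all WT arrays, so the labelled groups were apart on this probe set. Whether it lies inside or outside the deleted part is stated by neither the labels nor the methods, so the fall is not read as a measure of the deletion. The authors computed MAS5.0 signals, intensities on a linear scale, and their trimmed mean (2% off both ends) lay between 500.003 and 500.004 in all 8 arrays. On that scale the median signal was 96.7 to 114 in KO and 79.5 to 84.1 in WT. The highest signal was 32641.8 to 39185.3 in KO and 54913.6 to 60410.5 in WT. The spiked bacterial hybridisation controls read 11.54 to 11.85 in KO and 12.36 to 12.55 in WT on the log2 scale. Their log2 difference of -0.75 bears on every value below, since setting these controls equal raises each KO minus WT difference by that size. WT replicate 1 stood apart in sex-linked genes, with a log2 signal of 13.03 for Xist against 6.17 to 6.84 in the other WT arrays. Its Y-linked Kdm5d and Eif2s3y read 3.41 and -0.062. In the KO arrays Xist read 5.37 to 6.09, Kdm5d 9.26 to 9.54 and Eif2s3y 11.19 to 11.76. By these genes WT replicate 1 read as female and the other arrays as male, so sex was not balanced between the groups.

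Over the whole array the tested probe sets had a median log2 difference (KO minus WT) of 0.17. Tested means a KO or WT mean above a signal of 100, and called means a Benjamini-Hochberg adjusted p under 0.05 in limma over all 23379 tested probe sets. Of these 52.2% were called, 34.4% higher in KO and 17.7% lower.

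Xpo7 fell further than any other member. On its brightest probe set, 1439411_a_at, the signals were 2743, 2378, 3003 and 3074 in KO replicates 2 to 5, against 14340, 16045, 15481 and 15872 in WT replicates 1 to 4. Every KO array lay far below every WT array. The log2 means were 11.44 ± 0.17 in KO and 13.91 ± 0.073 in WT (SD, n = 4 each). The log2 difference was -2.47 (SE 0.11, 95% interval -2.72 to -2.21, limma adjusted p = 3.0e-06), a signal 5.54-fold lower in KO. Of all tested probe sets 0.543% had a difference as low or lower, which puts this one at place 127. In RNA of whole tissue, fewer cells of a type and less RNA per cell cannot be told apart.

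Marker genes of liver cell types differed beside Xpo7. Terminal erythroid markers had 9 of 13 genes tested, of which 8 were called lower in KO (median -1.07). Their log2 differences ran from -5.12 in Hbb-b2 and -3.02 in Ank1 to -0.15 in Sptb, which was not called. Their summed signal was 44711 to 48012 in KO against 111802 to 121481 in WT. With the hybridisation controls 5 were called lower and 1 higher. Markers of dividing cells had 11 of 12 tested and 7 lower (median -0.55), with a summed signal of 65572 to 80259 in KO and 121217 to 128908 in WT, but 0 lower and 2 higher with the hybridisation controls. No tested marker of either list was at 0. On its brightest single-symbol probe set Hba-a1 lay under 100 in both groups, so it was not tested and the level of that gene is not read from it. Their part in the differences of Xpo7, Ran and Ranbp1 was not tested.

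The other Xpo7 probe sets that were bright enough to test fell as well. On 1415682_at the signals were 1233, 1147, 1152 and 1362 in KO, against 5736, 6673, 5815 and 6298 in WT, with a log2 difference of -2.33 (SE 0.10) and a 5.01-fold lower signal in KO. On 1435814_at the signals were 123, 132, 127 and 145 in KO, against 485, 499, 515 and 621 in WT, a 4.01-fold lower signal in KO (95% interval of the log2 difference -2.26 to -1.74). In both, every KO array was below every WT array. The remaining pair of tested probe sets passed the minimum only through WT, so that a call could go only one way and their count supports nothing. On 1446826_at the signals were 25.2, 31.2, 23.2 and 56.5 in KO, against 226, 178, 241 and 239 in WT, at least 2.19-fold lower in KO when KO is set to 100. On 1442836_at they were 32.7, 14.3, 34.6 and 26.4 in KO, against 87.3, 152, 142 and 164 in WT, at least 1.32-fold lower in KO. All KO values on this pair lay below the minimum, so both folds are bounds.

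The Xpo7 probe sets 1454281_at, 1432573_at and 1443089_at stayed under a signal of 100 in both group means and were not tested. On 1443089_at the signals were 11.4, 1.59, 5.88 and 10.3 in KO, against 24.7, 18.8, 22.1 and 38.0 in WT, again without overlap, whereas in 1454281_at and 1432573_at the groups overlapped. Set against the brightest probe set within the same arrays, the fall was smaller on 1435814_at, by 0.47 on the log2 scale (SE 0.15, limma adjusted p = 0.0095). For 1415682_at the difference between the falls was 0.14 (SE 0.13), which did not pass the test.

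**Figure D1:**
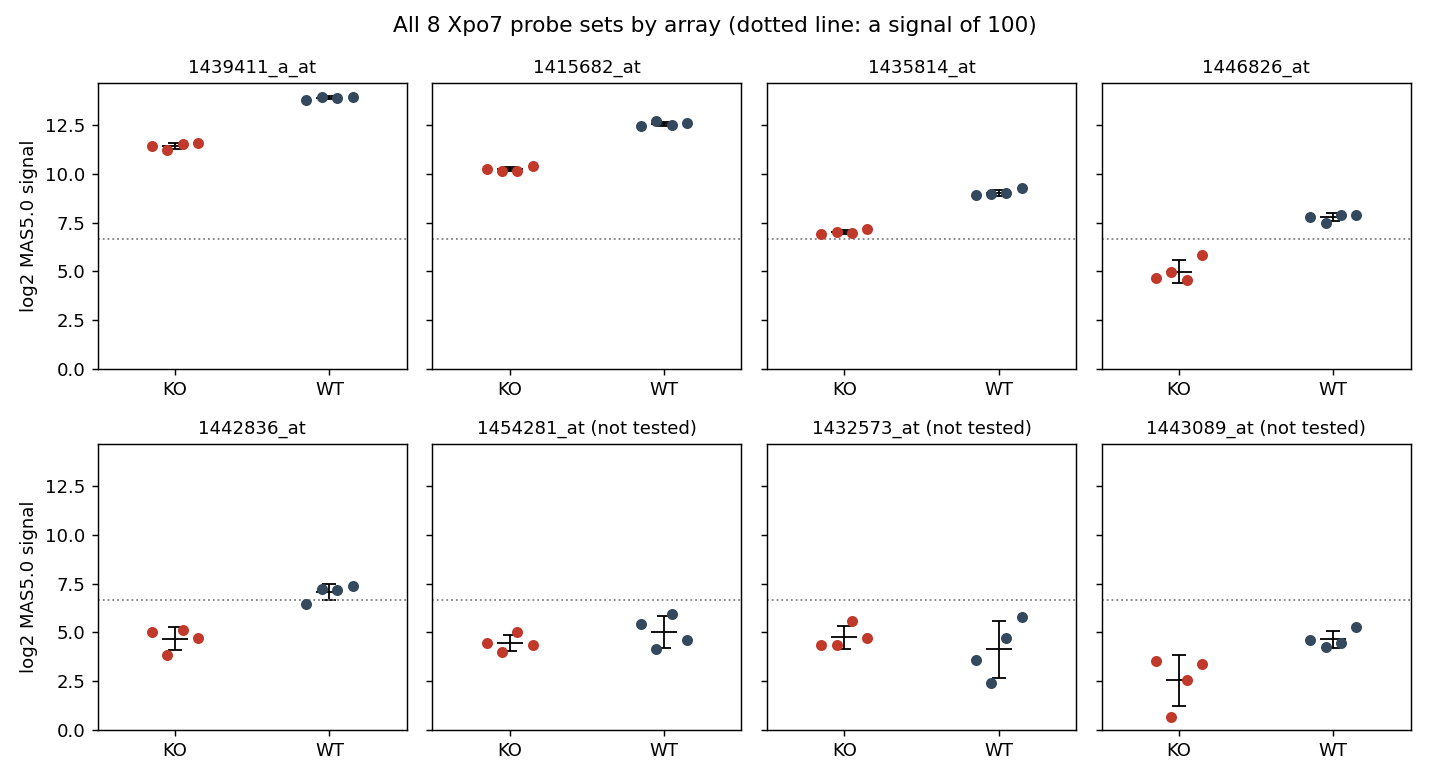
Log2 MAS5.0 signal of all 8 Xpo7 probe sets, with 1 point per array, KO left and WT right, and bars for the mean and SD (n = 4 each). The 3 brightest probe sets sit above a signal of 100 (dotted line) in both groups with KO below WT throughout, and the 3 probe sets that were not tested lie under the line.

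The 5 genes whose profile over the 8 arrays was most like that of Xpo7 also fell. Likeness was the root mean square difference of log2 signals, each centred on its WT mean, among 10127 genes with both group means above the minimum. The closest was Tspo2, a translocator protein family gene of the erythroid lineage, at 0.12, with log2 signals of 8.99, 8.78, 9.39 and 9.32 in KO, against 11.68, 11.74, 11.63 and 11.70 in WT. Next came the phosphatase gene Ptp4a3 at 0.15, the beta-arrestin gene Arrb1 at 0.15, the ubiquitin ligase gene Rnf123 at 0.17 and the red cell water channel gene Aqp1 at 0.18. Their log2 differences ran from -2.57 for Tspo2 to -2.31 for Ptp4a3. The measure picks genes with a fall of this size, so their direction is a description.

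The rest of the family did not share that fall. Over the 10 members, each on its brightest probe set, 4 were called lower in KO (Xpo7, Ran, Rangap1 and Ranbp1) and 3 higher (Xpo4, Xpo6 and Xpot), so that 7 of 10 were called against 52.2% of all tested probe sets, 4 lower against 17.7% and 3 higher against 34.4%. Xpo1, Xpo5 and Cse1l were not called, and the median log2 difference was -0.079. In the 4 called lower every KO array was below every WT array, which held for 17.4% of all tested probe sets, and in the 3 called higher every KO array was above every WT array, which held for 32.4%. Over all their probe sets, 25 of 32 were tested, of which 11 were called lower and 5 higher, including 2 of Xpo7 and 1 of Xpo4 that passed the minimum through 1 group and whose calls could go only one way. Both the higher and lower counts depend on how the arrays are scaled, as given below.

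**Figure D2:**
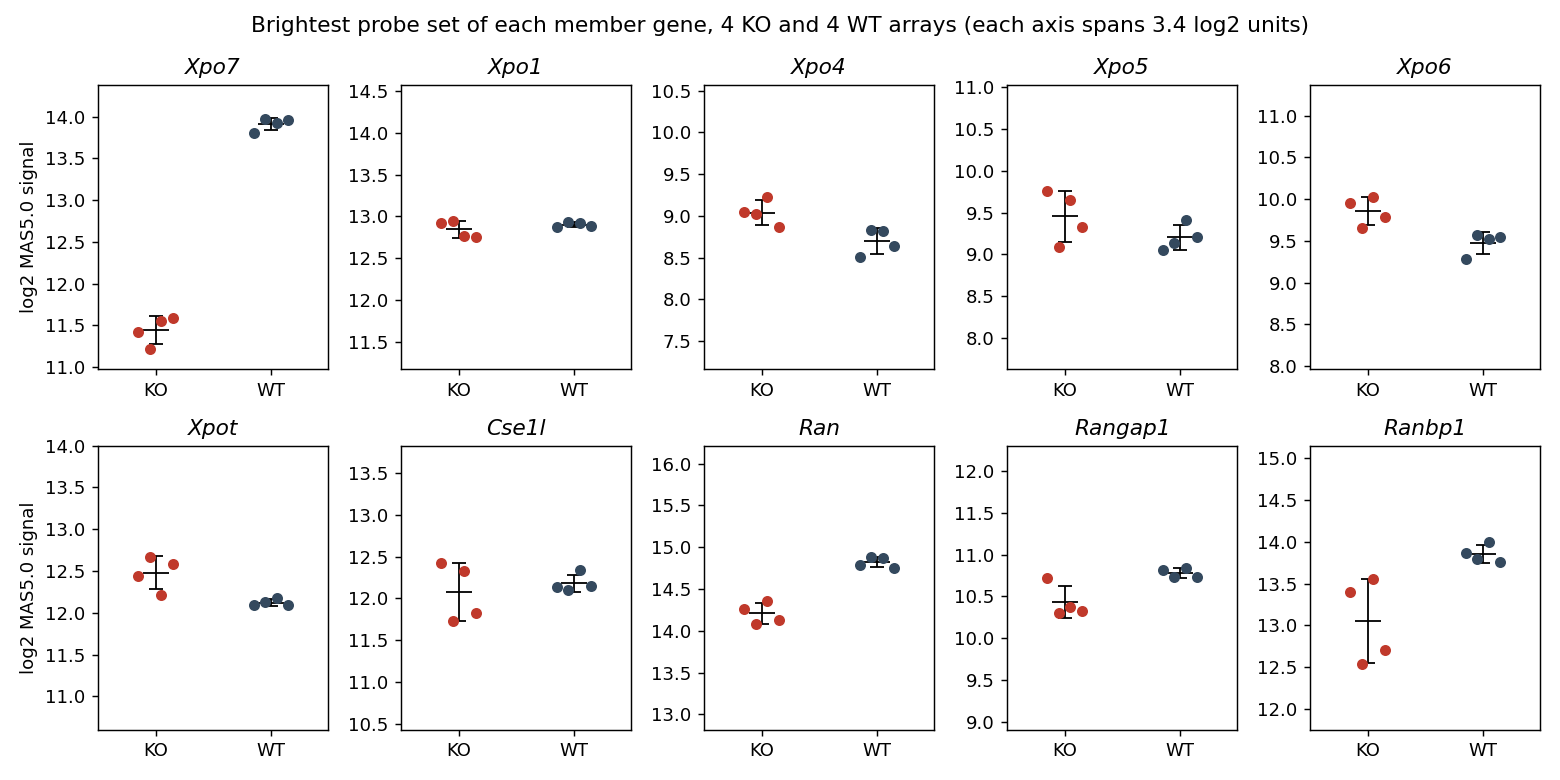
Log2 MAS5.0 signal of each member on its brightest probe set, with 1 point per array, KO left and WT right, and bars for the mean and SD (n = 4 each). Every panel spans the same 3.4 log2 units, so the gap of -2.47 in Xpo7 can be set by eye against those of the other members, which run from -0.81 in Ranbp1 to 0.38 in Xpo6.

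A test of the difference itself was made by taking the log2 signal of Xpo7 from that of every other probe set in the same array, in which any factor common to an array cancels. All 9 other members had a difference above that of Xpo7. The same was true of 99.0% of all tested probe sets, and 0.252% were below, so the count describes the place of Xpo7 on the array and nothing particular to the other 9. Nearest to it were Ranbp1, 1.66 above (SE 0.22, limma adjusted p = 1.6e-05), and Ran, 1.85 above (SE 0.14). Farthest were Xpo6, 2.85 above (SE 0.14), and Xpot, 2.82 above (SE 0.17).

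Ran, the GTPase of the cycle, was lower in KO on 4 of its 5 tested probe sets. On the brightest, 1433569_x_at, the signals were 19628, 17378, 21035 and 17925 in KO, against 28297, 30165, 29942 and 27593 in WT. The groups did not overlap, and the log2 difference was -0.61 (SE 0.10, limma adjusted p = 0.0012), a 1.53-fold lower signal in KO. The call was lost with quantile normalization, at -0.16 (limma adjusted p = 0.18), and with the hybridisation controls, at 0.13 (limma adjusted p = 0.41). The other 3 called probe sets, 1439270_x_at, 1438977_x_at and 1434578_x_at, had log2 differences of -0.68, -0.62 and -0.53. All 4 carry the suffix that marks probes shared with other sequences, so near-identical copies of Ran cannot be told apart on them. The probe set without it, 1460551_at, had signals of 2280, 1698, 2000 and 1836 in KO, against 2197, 2234, 2035 and 2541 in WT. There the groups overlapped and the log2 difference of -0.21 was not called (limma adjusted p = 0.19).

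Ranbp1, which helps RANGAP1 to act on RAN, was lower in KO with uneven KO arrays. Its signals were 10782, 5930, 12079 and 6681 in KO, against 14940, 14181, 16328 and 13909 in WT. All KO arrays were below all WT arrays, but KO replicates 3 and 5 lay far under KO replicates 2 and 4. The log2 difference was -0.81 (SE 0.23, limma adjusted p = 0.017), a 1.75-fold lower signal in KO, and the call was lost with quantile normalization, the poly-A or hybridisation controls, no minimum signal, the methods' t-test, and replicates 2, 3 and 4 alone with or without a replicate block.

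Rangap1, the activating protein, differed least among the members called lower. On 1423749_s_at the signals were 1681, 1260, 1325 and 1287 in KO, against 1807, 1695, 1827 and 1702 in WT. KO replicate 2 lay just under the lowest WT array and the other KO arrays well under it. The log2 difference was -0.35 (SE 0.12, limma adjusted p = 0.033), and the call was lost when any 1 array other than KO replicate 2 was left out. It was also lost with the poly-A controls, no minimum signal, the methods' t-test and the mean over its probe sets. The same held for replicates 2, 3 and 4 alone with or without a replicate block, and with the hybridisation controls it turned to a call higher. On its second tested probe set, 1451092_a_at, the groups overlapped and the log2 difference was -0.27 (limma adjusted p = 0.21).

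Xpo1 (CRM1), the exporter of proteins with a leucine-rich export signal, was not called. On 1418443_at the signals were 7773, 7857, 6987 and 6885 in KO, against 7529, 7814, 7734 and 7570 in WT. KO replicates 2 and 3 lay among or above the WT arrays and KO replicates 4 and 5 below them. The log2 difference was -0.057 (SE 0.093, 95% interval -0.27 to 0.15, limma adjusted p = 0.62), and a second probe set, 1418442_at, gave -0.025. With the 75th percentile it was called lower, at -0.32 (limma adjusted p = 0.021), and with the hybridisation controls called higher, at 0.69 (limma adjusted p = 4.2e-04). Quantile normalization gave 0.21 and the poly-A controls 0.018, neither called.

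Cse1l (CAS), which returns importin alpha to the cytoplasm, did not pass the test. Its signals were 5475, 3398, 5159 and 3642 in KO, against 4506, 4393, 5164 and 4523 in WT. KO replicates 3 and 5 were below all WT arrays, and KO replicate 2 was above them. The log2 difference was -0.10 (SE 0.17, 95% interval -0.49 to 0.29, limma adjusted p = 0.64), and it turned to 0.071 with quantile normalization and to 0.65 with the hybridisation controls.

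Xpo5, the exporter of microRNA precursors, gave different calls on its 2 probe sets. On the brightest, 1428560_at, the signals were 864, 543, 802 and 643 in KO, against 531, 562, 681 and 591 in WT. The groups overlapped, and the log2 difference was 0.25 (SE 0.16, 95% interval -0.12 to 0.62, limma adjusted p = 0.22). On 1451468_s_at they were 702, 514, 588 and 580 in KO, against 355, 437, 361 and 341 in WT. There every KO array was above every WT array, with a log2 difference of 0.67 (SE 0.13, limma adjusted p = 0.0028). Its suffix marks probes shared among several transcripts. The mean over both was called, at 0.46 (limma adjusted p = 0.016).

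Xpo4, which exports the translation factor EIF5A and SMAD3, was higher in KO. On 1421054_at the signals were 527, 518, 599 and 467 in KO, against 364, 454, 451 and 397 in WT. The lowest KO array lay just above the highest WT array, and the log2 difference was 0.34 (SE 0.12, limma adjusted p = 0.040). On 1442528_at the groups overlapped and the log2 difference of 0.30 was not called (limma adjusted p = 0.40). The third, 1430797_at, passed the minimum only through KO, with signals of 85.1, 118, 154 and 74.8 in KO, against 18.0, 65.9, 49.1 and 34.0 in WT, at least 1.04-fold higher in KO. The mean over all 3, which includes that dim probe set, was 0.70 (limma adjusted p = 0.023).

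Xpo6, the exporter of actin bound to profilin, was higher in KO by a like amount. Its signals were 995, 806, 1042 and 882 in KO, against 624, 762, 733 and 745 in WT. The groups did not overlap, and the log2 difference was 0.38 (SE 0.12, limma adjusted p = 0.028).

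Xpot, the exporter of transfer RNAs, was higher in KO on 1 of its 3 tested probe sets. On the brightest, 1428949_at, the signals were 5571, 6497, 4752 and 6162 in KO, against 4387, 4462, 4637 and 4362 in WT. All KO arrays were above all WT arrays, and the log2 difference was 0.36 (SE 0.12, limma adjusted p = 0.032). The other probe sets, 1428772_at and 1441682_s_at, gave log2 differences of -0.13 and -0.025, neither called, and the mean over all 3 gave 0.066 (limma adjusted p = 0.53).

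**Figure D3:**
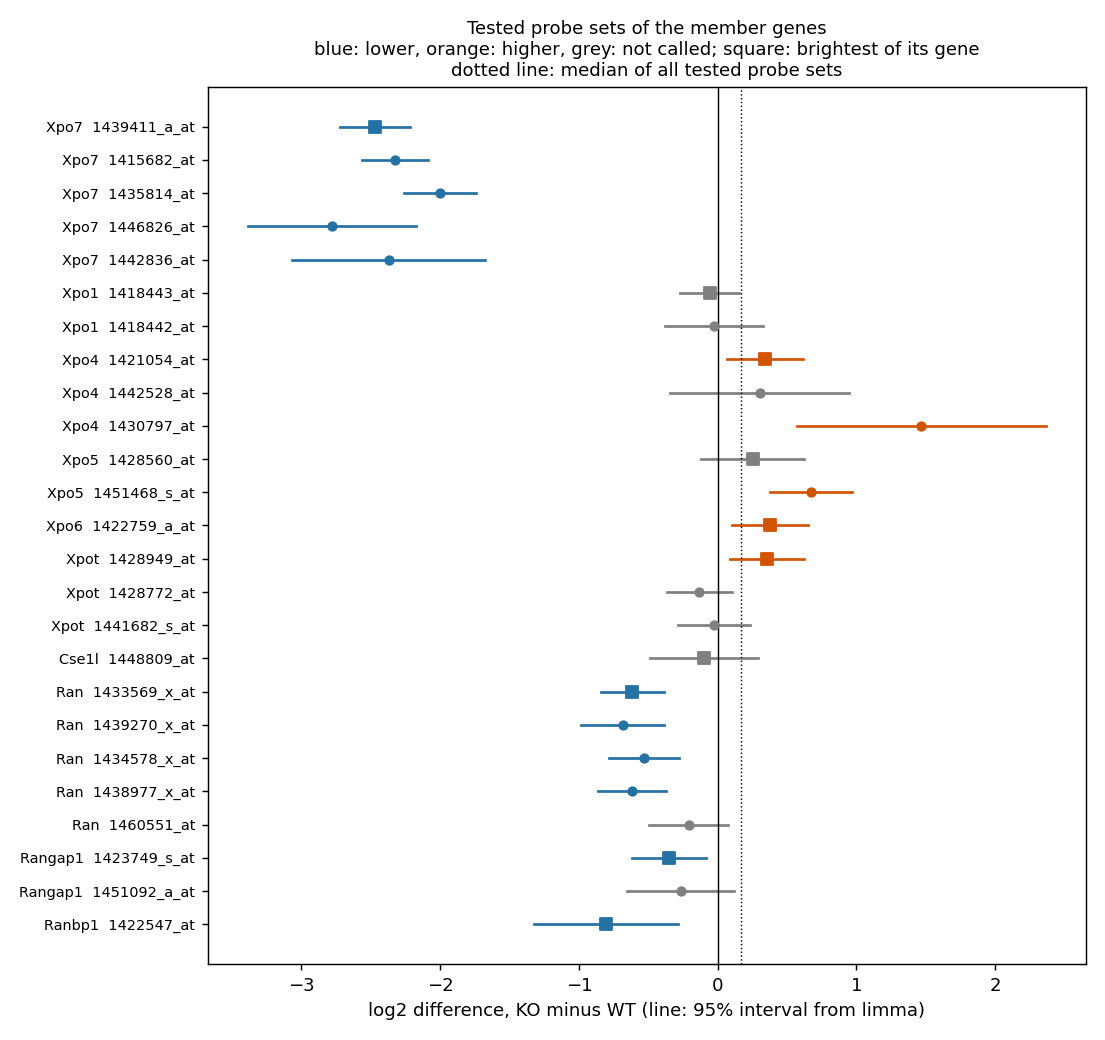
Log2 difference (KO minus WT, horizontal axis) of the 25 tested probe sets of the members, with 95% intervals from limma (square: brightest of its gene; blue: called lower, orange: higher, grey: not called). The 3 Xpo7 probe sets above a signal of 100 in both groups stand left of every other member, with intervals that end at or below -1.74, and for 1446826_at, 1442836_at and 1430797_at, under 100 in 1 group, only the bounds in the text hold.

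Among the members called higher, the calls hung on single arrays and on the scaling. Without WT replicate 1, the array that stood apart in sex-linked genes, 0 members were called higher, while Xpo7 stayed at -2.50 and 3 members were called lower. With 1 of the other 7 arrays left out, 1 or 2 were called higher. Xpo4 and Xpo6 passed the test neither with quantile normalization (0.077 and 0.22) nor with scaling to the 75th percentile (0.078 and 0.11), and Xpot passed with the first (0.57) but not with the second (0.091).

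The sign of the difference changed with the scaling for Xpo1, Xpo5, Cse1l, Ran and Rangap1, and that of Xpo7 did not. With the hybridisation controls set equal, 7 members were called higher and 1 lower. Of all 23379 tested probe sets, 18139 were then called higher and 603 (2.58%) lower. With the 75th percentile set equal 0 members were called higher and 5 lower, the fifth being Xpo1. Of all tested probe sets, 5232 were then called higher and 7185 (30.7%) lower. Xpo7 was the only member called lower in each of the 5 scalings, at -2.73 with the 75th percentile, -2.22 with quantile normalization, -2.39 with the poly-A controls and -1.72 with the hybridisation controls. With the hybridisation controls Ran turned to 0.13 and Ranbp1 stood at -0.057, neither called. Rangap1 turned to 0.40 there and was called higher (limma adjusted p = 0.031). The median of all tested probe sets moved with the scaling too, to -0.095, -0.0075, 0.24 and 0.92 in the same order.

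**Figure D4:**
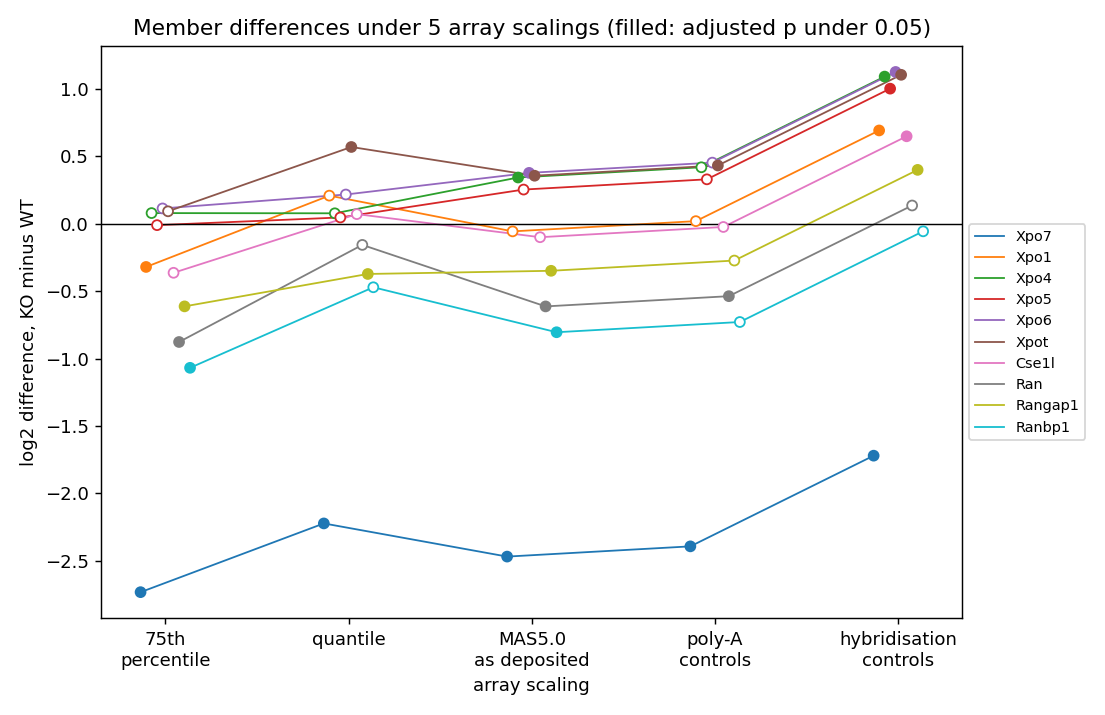
Log2 difference (KO minus WT, vertical axis) of the 10 members under 5 scalings of the arrays (horizontal axis), with 1 line per gene. Filled points have an adjusted p under 0.05; Xpo7 lies between -2.73 and -1.72 and apart from the other 9 lines, which cross 0 in part.

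Promoter sequence was looked at for the members that RefSeq's table holds (GRCm38.p6), which are 7 of the 10 and do not include Xpo7, Xpo4 and Cse1l. In the 250 bases before each annotated start, both strands were searched for CACCC, the sequence EKLF binds, for the palindrome CACGTG, a motif of MYC-type factors that reads the same on both strands, and for TTTNNCGC, an E2F-type motif. CACCC was found in 1 of the 7 members, against 52.0% of 32851 windows of the same length, CACGTG in 2 against 6.02%, and TTTNNCGC in 1 against 4.28%. Xpo1, Xpo6 and Rangap1 held none of them. The 4 windows with a match are printed because they show where the letters lie, with the match in capitals, each read 5′ to 3′ on the strand of its gene.
Xpo5, chr17:46202561-46202810, + strand, CACCC from base -109: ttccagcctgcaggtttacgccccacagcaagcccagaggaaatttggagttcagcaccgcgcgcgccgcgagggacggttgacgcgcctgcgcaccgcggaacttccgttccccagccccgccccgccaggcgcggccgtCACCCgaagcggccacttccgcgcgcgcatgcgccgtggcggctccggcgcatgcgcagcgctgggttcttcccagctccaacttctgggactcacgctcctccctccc
Xpot, chr10:121626333-121626582, - strand, CACGTG from base -231: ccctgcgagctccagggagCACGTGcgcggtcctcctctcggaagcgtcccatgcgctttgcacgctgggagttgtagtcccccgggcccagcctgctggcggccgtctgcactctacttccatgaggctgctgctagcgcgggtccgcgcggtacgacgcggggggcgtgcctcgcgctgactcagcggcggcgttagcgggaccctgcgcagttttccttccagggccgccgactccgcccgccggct
Ran, chr5:129019906-129020155, + strand, CACGTG from base -118: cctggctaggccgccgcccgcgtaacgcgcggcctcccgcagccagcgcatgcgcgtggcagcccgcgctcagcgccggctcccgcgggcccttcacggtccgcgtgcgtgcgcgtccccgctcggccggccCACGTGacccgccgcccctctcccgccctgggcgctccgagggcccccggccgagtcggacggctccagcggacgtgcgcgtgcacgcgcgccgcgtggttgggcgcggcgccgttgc
Ranbp1, chr16:18248695-18248944, - strand, TTTNNCGC from base -37: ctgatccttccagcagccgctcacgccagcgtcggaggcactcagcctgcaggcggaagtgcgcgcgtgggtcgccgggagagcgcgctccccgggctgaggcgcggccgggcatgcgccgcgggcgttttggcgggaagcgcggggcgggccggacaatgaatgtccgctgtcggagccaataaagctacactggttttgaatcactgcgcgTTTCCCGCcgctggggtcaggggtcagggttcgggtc
Bases are counted back from -1, the base before the annotated start. A match is a run of letters and not a measured site. The Xpo5 window was the one with CACCC, and those of Ran and Xpot held CACGTG. Whether a match goes with a difference between KO and WT was not tested.

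Beyond the members, the transport genes around them were read from 6 lists, each gene on its brightest probe set, and their counts stand beside the 34.4% of all tested probe sets called higher and the 17.7% called lower. Among the other Ran regulators and relatives, 6 of 9 were tested, 1 was called higher and 2 lower, with a median log2 difference of -0.38. Ranbp10, whose product is a subunit of the CTLH ubiquitin ligase, was lower, with log2 signals of 11.29, 10.86, 11.38 and 11.07 in KO, against 12.57, 12.52, 12.55 and 12.49 in WT. Its log2 difference was -1.38 (SE 0.13, limma adjusted p = 5.7e-05), while that of its relative Ranbp9, in the same complex, was 0.62 (SE 0.14, limma adjusted p = 0.0058). In both genes the groups were apart, on opposite sides. Rangrf (MOG1), which binds RAN, had log2 signals of 10.09, 9.50, 10.12 and 9.40 in KO, against 10.77, 10.81, 10.89 and 10.63 in WT, and KO replicates 3 and 5 were again the lower pair. Ranbp17, the closest relative of Xpo7, was too dim to test, with signals of 86.7, 40.0, 52.0 and 53.4 in KO, against 101, 63.5, 88.1 and 118 in WT on its brightest probe set, where the groups overlapped.

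The importins work in the opposite direction. All 11 beta importins were tested, 2 were called higher and 3 lower, with a median of -0.15. Kpnb1, importin beta itself, and Ipo7 had log2 differences of -0.55 and -0.52, and Ipo11 and Ipo4 of 0.58 and 0.43. Of the alpha importins, the adaptors that Cse1l returns, 5 of 6 were tested, 0 were called higher and 2 lower (Kpna4 at -0.36 and Kpna3 at -0.32), with a median of -0.31.

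Cargoes and adaptors of the exportins had 9 of 10 genes tested, 0 called higher and 3 lower, with a median of -0.19. Eif5a, the cargo of XPO4, had a log2 difference of -0.69 (SE 0.11, limma adjusted p = 9.2e-04), with 14.66, 14.56, 14.56 and 14.59 in KO, against 15.17, 15.29, 15.52 and 15.17 in WT. Pfn1, the profilin that XPO6 exports with actin, had one of -0.42 (SE 0.12, limma adjusted p = 0.016). Both were lower in KO while the brightest probe sets of their exportins were higher on the deposited scale. With quantile normalization neither Xpo4 (0.077) nor Xpo6 (0.22) was called. Eif5a and Pfn1 were also brighter, with WT log2 means of 15.29 and 14.15 against 8.70 for Xpo4 and 9.48 for Xpo6. The highest signals were lower in KO and the median signal higher, and the part of this in the contrast was not tested.

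Nucleoporins, the building blocks of the pore, had 28 of 30 tested, 1 called higher and 8 lower, with a median of -0.19. Nup210, a membrane nucleoporin, had log2 signals of 10.50, 10.11, 10.35 and 10.67 in KO, against 11.45, 11.35, 11.55 and 11.53 in WT, and Nup85 had a log2 difference of -0.55. Ndc1, another membrane nucleoporin, rose by 0.72 (SE 0.088, limma adjusted p = 2.6e-04). The mRNA export factors had 18 of 21 tested, 3 called higher and 6 lower, with a median of -0.13. Eny2 and Sarnp, which act in mRNA export complexes, had log2 differences of -0.94 and -0.84, and Pcid2 and Thoc5 of 0.48 and 0.41.

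All 6 list medians lay below that of all tested probe sets. The lists rest on brightest probe sets, and the median of all tested ones covers dimmer ones too. In KO the highest signals were lower and the median signal higher, and the part of this in the gap was not tested. The list counts too moved with the scaling. With the hybridisation controls the lower calls became 1, 0, 0, 0, 0 and 0 in the order given, and the higher calls 3, 7, 5, 7, 18 and 11. Of all 23379 tested probe sets, 18139 were then called higher and 603 (2.58%) lower. The list medians turned positive (0.37 to 0.62), still below that of all tested probe sets (0.92). With the 75th percentile the lower calls became 5, 5, 3, 6, 16 and 9, beside 30.7% of all tested probe sets called lower. No gene of the 6 lists had a difference as low as that of Xpo7, and the lowest was -1.38.

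**Figure D5:**
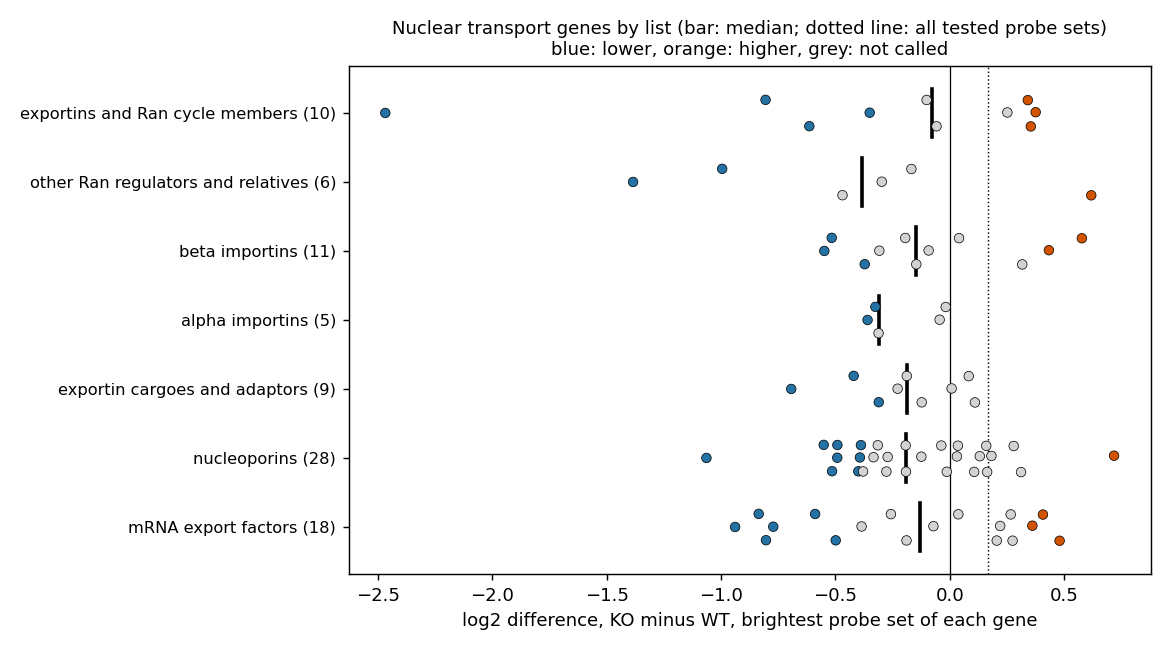
Log2 difference (KO minus WT, horizontal axis) of each tested gene of the members and of the 6 transport lists, on its brightest probe set, with the list median as a bar and the median of all tested probe sets (0.17) as a dotted line. Xpo7 is the leftmost point at -2.47, followed by Ranbp10 at -1.38.

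Of the other liver cell types, hepatocyte markers such as Alb were bright in both groups, which fits the labelled tissue, with 6 of 8 tested genes called lower (median -0.61), 0 lower with quantile normalization and 2 higher with the hybridisation controls. Macrophage markers had 1 of 9 called lower (median -0.42), but 6 lower with the 75th percentile and 4 higher with the hybridisation controls. Endothelial markers had 8 of 10 called higher (median 0.61) and megakaryocyte markers 4 of 6 (median 0.58), with more higher than lower calls in each scaling. Granulocyte markers had 2 of 9 called higher (median 0.62), and 8 with the hybridisation controls. KO replicate 5 stood apart in them, with a summed signal of 123198 against 48981 to 58336 in the other KO arrays and 47128 to 55128 in WT. For RNA integrity, the 3-prime probe set of Actb read above its 5-prime one by 0.55 ± 0.062 in KO and 0.85 ± 0.080 in WT on the log2 scale (SD, n = 4 each). For Gapdh the same measure was -0.20 ± 0.034 in KO and -0.16 ± 0.055 in WT, and there the groups overlapped. The part of RNA integrity in the member differences was not tested.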

How the data were processed

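Total RNA of whole E14.5 fetal livers was hybridised to Affymetrix mouse arrays. The methods name the smaller A version of the mouse genome array, but the deposited values span 45101 probe sets. The deposited values are MAS5.0 signals, intensities on a linear scale that the authors scaled per array. R 3.0.2 and MAS5, with no version, are listed in the submitters' processing notes. Genes were named from the platform annotation, which can be old, where a probe set had a single symbol (34945 probe sets). A further probe set with several symbols, one of them Xpo4, was left out.

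Log2 was taken of the deposited intensities, without a pseudocount. A probe set entered the test where its KO or WT log2 mean exceeded log2 of 100. The fit used limma 3.58.1 in R 4.3.3 (lmFit and eBayes, two-sided, genotype as the only term, all 8 arrays), with Benjamini-Hochberg adjustment at 0.05 over 23379 probe sets. The step was tested on simulated data. Each gene stands on its brightest probe set, by the mean of the 8 arrays. For the comparison with Xpo7 its log2 signal was subtracted within each array. Where a group mean lay below 100, the fold is a bound against 100. Promoters were searched and figures drawn in Python 3.11.15 (matplotlib 3.10.9, pandas 2.3.3, numpy 2.4.6).

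Named are all members, Klf1, the 2 largest rises and 2 largest falls among the called genes of each transport list, and the 5 genes most like Xpo7. Ranbp17, Xist, Kdm5d, Eif2s3y, Actb, Gapdh and single marker genes were named after their values were seen. The members, lists and rules were chosen with earlier results of these data known. Array signals hold no molecule counts, so precision is set by how many arrays there are. No 2 arrays shared more than 1 identical value. Alternatives were 4 other scalings, a pseudocount of 16, no minimum or one of 200, trend and robust options, the methods' t-test, a block for the replicate number, the loss of each array in turn, and the mean over probe sets.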

Additional observations from a re-analysis of the deposited data

How the results depend on the processing

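Xpo7 was called lower in KO under every alternative run, with a log2 difference of -2.73 to -1.72 over the scalings and -2.52 to -2.39 when each array was left out, and all 9 other members stayed above it. The count of called probe sets, 12195, became 18742 with the hybridisation controls and 10625 to 12100 when each array was left out. Calls higher and lower were 8049 and 4146, but 5608 and 5364 with quantile normalization, 5232 and 7185 with the 75th percentile, 18139 and 603 with the hybridisation controls and 8123 and 2363 with the poly-A controls.

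Members called lower, 4 at first, were 2 with quantile normalization, the poly-A controls, no minimum signal or the methods' t-test, 1 with the hybridisation controls, and 3 to 4 when each array was left out. Members called higher, 3 at first, were 1 with quantile normalization or the poly-A controls, 0 with the 75th percentile or no minimum signal, 7 with the hybridisation controls, and 0 to 2 when each array was left out (0 without WT replicate 1). The sign turned for Xpo1 (0.21 quantile, 0.69 hybridisation, 0.018 poly-A), Xpo5 (-0.011 with the 75th percentile), Cse1l (0.071 quantile, 0.65 hybridisation, -0.21 to 0.015 over arrays left out, 0.015 without KO replicate 3), Ran (0.13 hybridisation) and Rangap1 (0.40 hybridisation). The cause was not tested.

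Replicate numbers 2, 3 and 4 occur in both groups, but same-numbered arrays did not deviate together (correlations of -0.00084, -0.082 and -0.027). These values cannot show whether arrays of the same number were handled together, which the labels do not state. With the number as a block, 7780 probe sets, 2 members lower and 0 higher were called. The same 6 arrays without the block, an alternative chosen after seeing the data, gave 9714, 2 and 0. Xpo7 was -2.55 in both.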

Other observations

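Of 60 array groups examined (each tested probe set of the members and the 5 genes most like Xpo7, in KO and in WT), 0 had an array far from the other 3 by Dixon's test, which would flag about 5% by chance. KO replicates 3 and 5 nevertheless lay together under KO replicates 2 and 4 on many brightest probe sets. Among them were Xpo4, Xpo5, Xpo6, Cse1l, Ran, Rangap1, Ranbp1 and Rangrf. This was not so in Xpo1 and Xpo7, and in Xpot KO replicates 3 and 5 lay above the others. The medians of the transport lists showed the same split, except that of the beta importins. The member median, each gene set against its WT mean, was 0.13, -0.28, -0.021 and -0.25 on the log2 scale in KO replicates 2 to 5. It was -0.038, 0.014, 0.056 and -0.034 in WT replicates 1 to 4. This split was noticed in the data and was not tested.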
